A study of Macrobrachium nipponense with 6 samples.

Results

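let-7 is a small regulatory RNA of developmental timing, followed here in Macrobrachium nipponense, the oriental river prawn, under low or normal dissolved oxygen. Its probes were chosen by name, as every probe called let-7 after the species prefix, which gave 12 of the 2546 miRNA probes on the array. Of these, 6 were bright enough to enter the comparison of oxygen levels, which held 339 probes. The hypoxic prawns were kept for 24 h at 2.0 ± 0.1 mg O2 per L, in tanks bubbled with nitrogen gas. The normoxic prawns were kept for 24 h at 6.5 ± 0.2 mg O2 per L. Each group had 3 samples with 1 array each, and each sample was RNA of combined gill, hepatopancreas, muscle and hemocytes. Whether each sample was a different set of prawns is not given in the labels, so the p-values below reflect only how far these samples differ, which may be technical. In such combined tissue, fewer cells of a type and less RNA per cell cannot be told apart.

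As background, the let-7 hairpin gives a guide strand from its 5p arm and a passenger strand from its 3p arm. The guide strand, loaded into an Argonaute protein, pairs with messenger RNAs mainly through its seed, bases 2 to 8, and lowers their output. let-7 was found in Caenorhabditis elegans, where its loss makes larval cell fates repeat, and its guide strand is nearly the same in most animals with bilateral symmetry. In Drosophila it is transcribed together with miR-100 and miR-125, rises at the transition to the adult under the moulting hormone ecdysone, and is needed for the remodelling of nerve and muscle.

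The probes fell into guide-strand, passenger-strand and variant targets, and the sequences below show how close the guide-strand targets are to each other. They are the target sequences given with the array, written 5′ to 3′. In the guide-strand targets capitals mark the seed, and in aae-let-7 also the base that differs from the others.
mse-let-7a: uGAGGUAGuagguuguauag
dme-let-7-5p: uGAGGUAGuagguuguauagu
isc-let-7_R+1: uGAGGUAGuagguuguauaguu
hme-let-7: uGAGGUAGuagguuguauagua
dan-let-7_R+3: uGAGGUAGuagguuguauaguauc
aae-let-7: uGAGGUAGuUgguuguauagu

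The first 5 of these are identical over their first 20 bases and differ only in where the 3′ end lies and which bases it adds, over lengths of 20 to 24 nt. aae-let-7, named after the mosquito Aedes aegypti, has the length of dme-let-7-5p (the Drosophila melanogaster form, 21 nt) and carries the substitution A10U against it, counted from 1 at the 5′ end. No probe of another name shared the seed: all 6 miRNA probes with it were let-7 probes. The closest target outside let-7 was 6 edits from dme-let-7-5p.

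The other 6 probes target different sequences, and the pair below shows the passenger strand of the silkworm Bombyx mori and the variant of it that gave signal on every array. Capitals mark the 3 bases at which they differ, which are U6C, G8A and C10U from the silkworm form to the variant.
bmo-let-7-3p: cuguaUaGcCugcuaacuuucc
bmo-let-7-3p_3ss6TC8GA10CT: cuguaCaAcUugcuaacuuucc

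The detection limit of an array was its local background plus 3 times the standard deviation over its empty spots. The height of the limit is those 3 standard deviations, without the background. The 5 guide-strand probes without the changed base were detected on all 6 arrays, where their signal above background was 108 to 254 times the height of the limit. Their highest reading, 18262 intensity units, was well below the brightest spot of any array (54437 to 56041 in hypoxia and 57689 to 62122 in normoxia). The silkworm variant of the passenger strand was also detected on all 6 arrays, but close to the limit. Its signal above background was 1.05 to 4.06 times the height of the limit. aae-let-7 was detected on 4 arrays. The remaining 5 probes (bmo-let-7-3p, tca-let-7-3p, dme-let-7-3p, cqu-let-7-3p and api-let-7-p3_1ss5TG) passed the limit on 3 of their 30 spots. None had signal above background of more than 1.60 times the height of the limit. The 3 detections were bmo-let-7-3p on normoxia 2 (108 units above background), api-let-7-p3_1ss5TG on normoxia 2 (87.2 units) and dme-let-7-3p on hypoxia 2 (30.2 units). These 5 probes have no measured level here, and no difference between groups can be read from them.

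The main question was whether the level of let-7 differed after 24 h of low oxygen, and no let-7 probe passed the test. Averaged over the 5 guide-strand probes, the level was 13.23 ± 0.40 in hypoxia and 13.39 ± 0.06 in normoxia (log2, SD, n = 3 each). The hypoxia arrays covered a wider range than the normoxia arrays, with hypoxia 3 above and hypoxia 2 below all 3 normoxia arrays in each of the 5 probes. The brightest probe, dme-let-7-5p, read 13.37, 13.02 and 13.61 on hypoxia 1, 2 and 3 and 13.52, 13.48 and 13.41 on normoxia 1, 2 and 3 (log2 intensity after normexp background correction and quantile normalization, the scale of all levels below). The normoxia arrays thus lay inside the range of the hypoxia arrays. Its mean was 13.33 ± 0.30 in hypoxia and 13.47 ± 0.06 in normoxia (SD, n = 3 each). The difference, hypoxia minus normoxia, was -0.14 (log2), with a 95% interval of -0.75 to 0.47 and a limma adjusted p of 0.956 over all 339 probes. That interval corresponds to 0.596 to 1.38 times the normoxic level, for this probe and this scaling only. The difference of dme-let-7-5p was 0.02 without hypoxia 2 and 0.32 after 75th percentile scaling. For isc-let-7_R+1, described below, the interval was wider, at 0.447 to 1.45 times the normoxic level.

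The extreme arrays were the same before scaling between them. Above local background, dme-let-7-5p read 11911, 5930 and 17298 units on hypoxia 1, 2 and 3 and 9024, 12842 and 10617 units on normoxia 1, 2 and 3. Hypoxia 2 was the lowest and hypoxia 3 the highest of the 6 arrays. In the authors' deposited values the same probe stood at 10747, 8524 and 13653 in hypoxia and 11030, 10086 and 10725 in normoxia. There too hypoxia 2 was lowest and hypoxia 3 highest, and the normoxia values lay close together.

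The 4 other guide-strand probes share 20 bases with dme-let-7-5p and are not independent of it. The probe for the 20 nt form, mse-let-7a, read 13.29, 12.95 and 13.67 on hypoxia 1, 2 and 3 and 13.48, 13.47 and 13.29 on normoxia 1, 2 and 3 (log2). It averaged 13.31 ± 0.36 in hypoxia and 13.41 ± 0.11 in normoxia (log2, SD, n = 3 each), a difference of -0.11 (-0.77 to 0.55). Its normoxia arrays lay inside the hypoxia range, and those of the form with an added A at its end, hme-let-7, did too. hme-let-7 read 13.07, 12.83 and 13.65 in hypoxia and 13.41, 13.41 and 13.37 in normoxia. It averaged 13.18 ± 0.42 in hypoxia and 13.39 ± 0.03 in normoxia, a difference of -0.21 (-0.91 to 0.48) that was -0.038 without hypoxia 2 and -0.45 without hypoxia 3. The longest form was again lowest on hypoxia 2 and highest on hypoxia 3. This probe, dan-let-7_R+3, read 13.13, 12.87 and 13.63 in hypoxia and 13.32, 13.11 and 13.21 in normoxia. It averaged 13.21 ± 0.39 in hypoxia and 13.21 ± 0.11 in normoxia, and its difference of -0.0016 (-0.68 to 0.68) was the smallest of the 5. The groups overlapped in each of these 3 probes, and the adjusted p ranged from 0.953 to 0.998 (limma).

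The form ending in an added U, isc-let-7_R+1, read 13.32, 12.45 and 13.59 in hypoxia and 13.47, 13.52 and 13.32 in normoxia, again with overlap. It averaged 13.12 ± 0.59 in hypoxia and 13.44 ± 0.10 in normoxia, a difference of -0.31 (-1.16 to 0.53; limma adjusted p = 0.953). Its lower mean came from hypoxia 2. Its level minus that of dme-let-7-5p was -0.04, -0.56 and -0.02 on hypoxia 1, 2 and 3 and -0.05, 0.03 and -0.09 on normoxia 1, 2 and 3. The difference between these 2 probes had a group mean lower by 0.17 in hypoxia, within the spread of the arrays (-0.17, two-sided exact permutation p = 0.6, n = 3 each). This comparison of probes was not among those planned. Without hypoxia 2 the hypoxia minus normoxia difference of isc-let-7_R+1 was 0.02.

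On a single array the 5 guide-strand probes lay within 0.08 to 0.56 of each other in hypoxia and within 0.20 to 0.41 in normoxia (log2). They were closest on hypoxia 3 and widest on hypoxia 2. Averaged over the 5 probes, the level was 13.24, 12.82 and 13.63 on hypoxia 1, 2 and 3 and 13.44, 13.40 and 13.32 on normoxia 1, 2 and 3. The spread over arrays was therefore shared by the 5 probes and covered 12.82 to 13.63 in hypoxia and 13.32 to 13.44 in normoxia. Within a spot the standard deviation was 1.12% to 10.7% of the reading, with a median of 2.26%.

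The passenger-strand variant bmo-let-7-3p_3ss6TC8GA10CT was the only tested let-7 probe whose groups did not overlap. It read 7.42, 6.94 and 7.58 on hypoxia 1, 2 and 3 and 7.71, 8.11 and 7.77 on normoxia 1, 2 and 3. Every hypoxia array was below every normoxia array. The means were 7.31 ± 0.34 in hypoxia and 7.86 ± 0.21 in normoxia (log2, SD, n = 3 each), a difference of -0.55 (-1.22 to 0.13) that did not pass (limma, unadjusted p = 0.0937, adjusted p = 0.858) and was -0.36 without hypoxia 2. Among the 6 let-7 probes this 1 had groups without overlap, against 10% of all 339 probes in either direction and 6.19% with hypoxia lower. The separation was seen only on the quantile-normalized scale among those examined. Above local background the probe read 144, 40.0 and 117 units in hypoxia and 119, 274 and 99.4 units in normoxia, and the groups overlapped. They also overlapped in the authors' deposited values (83.4, 23.5 and 156 in hypoxia, 133, 131 and 147 in normoxia), after 75th percentile or cyclic loess scaling, and without scaling.

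The passenger strand was also set against the guide strand within each array, a comparison chosen after the values were seen. The passenger variant minus dme-let-7-5p was -5.95, -6.08 and -6.03 on the hypoxia arrays and -5.81, -5.38 and -5.64 on the normoxia arrays (log2). The hypoxia arrays were lower, by 0.41 on average (-0.41, two-sided exact permutation p = 0.1, the smallest that 3 against 3 allows). With intensities above background the groups overlapped, and the difference was -0.75 (log2, exact permutation p = 0.2). Over the 3 such differences computed, the adjusted p was 0.3 for both scales and 0.6 for the end variants above. That adjustment does not cover how the pairs of probes were chosen. The difference of levels between 2 probes also holds their binding strengths, so only its change between arrays was compared.

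Counted together, 0 of the 6 tested let-7 probes passed, where 0 of the 339 probes passed in all (0%, limma, adjusted p of 0.702 or more). Before adjustment, 0 of the 6 and 16 of the 339 (4.72%) had a p under 0.05. Without hypoxia 3, 1 of the 339 probes passed, and it was not a let-7 probe. All 6 differences lay below 0 after quantile normalization, as did 58.4% of all probes, with 41.3% above 0, but 5 of the 6 lay above 0 after 75th percentile scaling and 4 of the 6 in the authors' values. The median difference of the 6 was -0.18 (log2) and that of all 339 was -0.09. After 75th percentile scaling these medians were 0.31 and 0.22, so the let-7 median was 0.08 below that of all probes in the one scaling and 0.09 above it in the other.

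aae-let-7, the target with the changed base, was not lowest on hypoxia 2 or highest on hypoxia 3 as the other guide-strand probes were. It read 1335, 216 and 37.7 units above background on hypoxia 1, 2 and 3 and 109, 159 and 49.9 units on normoxia 1, 2 and 3. Hypoxia 1 and 2 were above every normoxia array. Hypoxia 3 and normoxia 3 were below the detection limit, so they have no order between them. Since neither group was detected in full, the probe did not enter the comparison. Its levels were 9.76, 8.45 and 6.78 in hypoxia and 7.61, 7.41 and 7.38 in normoxia (log2), and here too only hypoxia 1, hypoxia 2, normoxia 1 and normoxia 2 were above the limit.

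As a share of dme-let-7-5p, from which it differs by A10U, aae-let-7 gave 11.2%, 3.65% and 0.218% on hypoxia 1, 2 and 3. On normoxia 1, 2 and 3 it gave 1.21%, 1.24% and 0.470%. Among the 4 arrays on which aae-let-7 was detected, hypoxia 1 and 2 were above normoxia 1 and 2. The shares on hypoxia 3 and normoxia 3 come from spots below the limit and have no order. The arrays also held calibration probes with names ending in 3M or 3P. The 3M signal as a share of the 3P signal was 10.8%, 7.14% and 1.22% on hypoxia 1, 2 and 3, and it was 2.58%, 3.73% and 1.87% on normoxia 1, 2 and 3. For this calibration share hypoxia 1 and 2 were above every normoxia array, and hypoxia 3 was the lowest of the 6. A second set, PUC2MM over PUC2PM, gave 54.1%, 31.8% and 12.8% in hypoxia and 17.1%, 27.8% and 22.3% in normoxia. The files do not state what these calibration names stand for, and the part of the calibration difference in the aae-let-7 values was not tested.

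The partners of let-7 in its Drosophila gene cluster did not pass either. For miR-100 and miR-125 the array held 23 probes, of which 15 were tested, with 0 past the threshold in either direction (limma), 0 at an unadjusted p under 0.05, 9 above 0 and 6 below. Their median difference was 0.20 (log2), and it was 0.05 to 0.40 under the other scalings. miR-125 is the arthropod form of lin-4, a timing miRNA of Caenorhabditis elegans. Its brightest probe, ame-miR-125, read 12.21, 11.50 and 10.70 in hypoxia and 11.58, 10.54 and 8.46 in normoxia, a difference of 1.28 (-0.78 to 3.33; limma adjusted p = 0.858). The groups overlapped, normoxia 3 was the lowest array, and the difference was 0.41 without it and 1.97 without normoxia 1. The 13 tested probes for miR-100 had differences from -0.50 to 1.61, with 7 above 0 and 6 below. The brightest of them, api-miR-100, read 13.65, 13.63 and 14.86 in hypoxia and 14.26, 13.66 and 13.63 in normoxia. Its difference was 0.20 (-0.83 to 1.22, limma adjusted p = 0.956). Hypoxia 3 was the highest array for api-miR-100, as it was for the let-7 guide strand, and the difference was -0.21 without hypoxia 3. That array was also the highest for tur-miR-34-5p and aae-miR-281-5p, given below and not partners in the cluster. It was not the highest for ame-miR-125, dpu-miR-8_R-1 or aga-miR-275_1ss13AT.

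A wider list of miRNAs tied to ecdysone signalling in insects held miR-100, miR-125, miR-34, miR-14, miR-281, miR-8 and miR-275. Of its 51 tested probes 0 passed in either direction (limma), 24 lay above 0 and 27 below, with a median of -0.02, and 4 had an unadjusted p under 0.05, against 4.72% of all 339 probes. After 75th percentile scaling 37 of the 51 lay above 0, as did 239 of all 339 probes. miR-34, which falls under ecdysone in Drosophila while let-7 rises, had 8 of 8 tested probes below 0, where 58.4% of all probes lay. After 75th percentile scaling 6 of 8 were below 0, and 8 of 8 were with cyclic loess, without scaling and in the authors' values. For miR-34, 2 of 8 probes had an unadjusted p under 0.05 (limma), against 4.72% of all 339, and 2 had groups without overlap, against 10%. Its brightest, tur-miR-34-5p, read 9.46, 9.63 and 10.84 in hypoxia and 10.32, 10.44 and 10.18 in normoxia, a difference of -0.33 (-1.34 to 0.67; limma adjusted p = 0.953). The normoxia arrays lay inside the hypoxia range, and the difference was -0.077 without hypoxia 1, -0.16 without hypoxia 2 and -0.77 without hypoxia 3. miR-281, which targets an ecdysone receptor isoform in the silkworm, had 9 of 18 above 0, and 15 of 18 after 75th percentile scaling. Its brightest, aae-miR-281-5p, read 13.83, 13.83 and 14.45 in hypoxia and 13.73, 14.03 and 14.03 in normoxia, with overlap and a difference of 0.11 (-0.57 to 0.78; adjusted p = 0.956). miR-8, a regulator of insulin signalling in the Drosophila fat body, had 2 of 5 above 0, and 4 of 5 after 75th percentile scaling. The brightest of these, dpu-miR-8_R-1, read 11.26, 12.11 and 11.95 in hypoxia and 12.45, 11.52 and 11.30 in normoxia, and the 0.02 difference (-0.98 to 1.02; adjusted p = 0.997) did not pass. miR-275, needed for egg development after a blood meal in mosquitoes, had 4 of 5 above 0 under all 5 scalings. Its brightest probe, aga-miR-275_1ss13AT, lay the other way, with 12.73, 12.37 and 11.63 in hypoxia and 12.57, 12.90 and 13.13 in normoxia, a difference of -0.62 (-1.49 to 0.25; adjusted p = 0.858). The groups overlapped through hypoxia 1, and the difference was -0.32 without hypoxia 3. miR-14, which limits the ecdysone receptor in Drosophila, had 5 probes on the array and 0 tested.

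Among tested probes outside let-7, likeness to dme-let-7-5p over the 6 arrays was measured as the root mean square difference of log2 levels after each probe was centred on its own mean. It was computed for the brightest probe of each of 121 combinations of miRNA stem and arm. The 5 closest were bmo-mir-2a-1-p3_1ss1TG (0.11), bmo-miR-279a_R+3_1ss17CT (0.12), bmo-miR-316-5p (0.15), ame-miR-87 (0.17) and dpu-miR-9-3p (0.17), against a median of 0.47 over the 121. Within let-7 the same measure was 0.06 for mse-let-7a, 0.11 for hme-let-7, 0.12 for dan-let-7_R+3 and 0.20 for isc-let-7_R+1. A probe that varies little lies close to any other that varies little, and levels share each array's scaling. The 5 names depend on the scaling, with 1 of them shared after 75th percentile scaling.

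For the arrays as a whole, 342 to 1001 of the 2546 probes were detected on single arrays (420 to 908 in hypoxia, 342 to 1001 in normoxia), and the number of arrays limits the precision. Of the muscle miRNAs miR-1 and miR-133, 4 of 15 probes were detected on all arrays. Signal above local background, without scaling between arrays, was also summed over all probes of a list. For all 15 muscle probes the sums were 13.62 to 15.10 in hypoxia and 13.01 to 14.67 in normoxia (log2). For all 86 probes of the nervous system list (miR-124, miR-9, miR-263 and miR-7) they were 14.77 to 15.81 in hypoxia and 14.72 to 15.78 in normoxia. Of these 86, 31 were detected on all arrays, but 0 of the 8 probes for miR-124 were. Of those 31 probes, 17 were for miR-263 and 12 for miR-9, and nervous tissue is not named among the combined tissues. Over all probes, 292 of 2546 were detected on every array. No probe carried the names of the vertebrate liver and blood miRNAs listed as negative checks.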

How the data were processed

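Total RNA of each sample was dyed with Cy3 by the LC Sciences protocol for a single colour, per the labels' protocols. Per the file headers, the deposited scanner tables give each spot's median intensity, on a linear scale. Empty spots carry signal there, so no background had been taken off, and each miRNA probe has 1 spot. A second deposited table holds the authors' background-subtracted and scaled intensity. The steps behind it are not given in the sources used here. It served as an alternative, as log2 after adding 32.

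Local background was taken from the nearest 20 empty spots, as their median. After removal of control spots from the normexp result (limma 3.58.1 in R 4.3.3, offset 50, so that changes of dim probes come out smaller), quantile normalization and log2 followed. Groups came from the titles. A probe was tested if every array of hypoxia or every array of normoxia detected it. limma compared hypoxia minus normoxia, with Benjamini-Hochberg adjustment over all 339 and a threshold of 0.05. The fit was also run on simulated levels with known changes added, to check their size and sign. Noise there was independent between probes, unlike the spread over arrays that the guide-strand probes shared. Exact permutation tests were two-sided.

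The let-7 probes and all lists were chosen with earlier results of these data known. The rule for names took every tested let-7 probe, the brightest tested probe of each listed stem and the 5 probes most like dme-let-7-5p. Untested let-7 probes are named to account for all 12. Alternatives varied the background, scaling, filter, eBayes trend and array weights, added a replicate block, or omitted an array from the fit. The calibration ratio as a covariate was added after seeing the data.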

Additional observations from a re-analysis of the deposited data

Results flagged for a closer look

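Signals in probes outside the comparison exceeded their level on every normoxia array. The let-7 probe with the changed base, aae-let-7, read 1335 units above background on hypoxia 1 and 216 on hypoxia 2, against at most 159 on a normoxia array, while hypoxia 3, below the detection limit, read 37.7. The 3M calibration probes reached 10.8% of the 3P probes' signal on hypoxia 1, and 7.14% on hypoxia 2, against at most 3.73% on a normoxia array, while hypoxia 3 gave 1.22%. With 3 arrays in a group, no single array was tested as an outlier, but fits with each array left out in turn are given below.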

How the results depend on the processing

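The count of let-7 probes past the threshold (limma) was 0 under all 20 alternatives, with adjusted p of 0.127 or more in all. The number detected on every array was 6 in the 7 alternatives where it was recounted, a limit of 2 standard deviations and each array omitted in turn. Among all probes 0 passed except without hypoxia 3, where 1 did (adjusted p = 0.0120), so leaving out arrays one at a time gave 0 to 1. Array weights left 0 let-7 probes past it but 3 of 6 at an unadjusted p under 0.05, and leaving out hypoxia 3 left 2. Without a filter on dim probes, 1 of 12 let-7 probes was at that level. The count of all probes at that level was 7 with the 75th percentile, 5 without scaling, 72 of 2546 without a filter, 73 with array weights and 44 with the calibration covariate. It was 63 when hypoxia 3 was omitted, 6 for normoxia 2 and 9 for normoxia 3.

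Changes of sign, with adjusted p from limma between 0.673 and 1.00, were as follows, and their cause was not tested. With the 75th percentile, dme-let-7-5p was at 0.32, dan-let-7_R+3 at 0.39, isc-let-7_R+1 at 0.17, mse-let-7a at 0.34 and hme-let-7 at 0.31, and the let-7 median moved to 0.31. In the authors' values dme-let-7-5p was at 0.023, dan-let-7_R+3 at 0.10, mse-let-7a at 0.042, hme-let-7 at 0.014 and aae-miR-281-5p at -0.0041. With cyclic loess dan-let-7_R+3 was at 0.057 and aae-miR-281-5p at -0.050. Without scaling dan-let-7_R+3 was at 0.071, mse-let-7a at 0.016 and aae-miR-281-5p at -0.013. With the covariate dan-let-7_R+3 was at 0.15 and mse-let-7a at 0.0030, and with array weights api-miR-100 was at -0.056 and aae-miR-281-5p at -0.12. Single arrays left out gave dme-let-7-5p from -0.28 (without hypoxia 3) to 0.018 (without hypoxia 2), dan-let-7_R+3 from -0.21 to 0.17, isc-let-7_R+1 from -0.55 to 0.019, mse-let-7a from -0.29 to 0.068 and the let-7 median from -0.37 to 0.019. They gave api-miR-100 from -0.21 to 0.40, aae-miR-281-5p from -0.10 to 0.21 and dpu-miR-8_R-1 from -0.21 to 0.37. The passenger variant bmo-let-7-3p_3ss6TC8GA10CT stayed below 0 throughout, from -0.99 with background subtracted to -0.21 with the 75th percentile.

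Same-numbered samples did not deviate together (correlations of -0.25, -0.27 and -0.06 across 339 probes). Whether they shared a batch or handling cannot be decided from these correlations, because shared handling need not leave deviations in common. With the replicate block, 0 probes passed and dme-let-7-5p stayed at -0.14 (limma adjusted p = 0.992). Of the 5 probes most like dme-let-7-5p, 0 to 5 were shared between settings, with 0 when dim probes were included. Detection in the authors' values was not run, since that table gives no background.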
